A study of Mus musculus with 8 samples.

Results

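ISG15 is a small ubiquitin-like protein that cells attach to other proteins after an interferon signal, and the genes described here are those of its conjugation system together with Lgals3bp. The 7 genes were selected by name, with their values in these same libraries already known: Isg15, the modifier itself, Uba7, Ube2l6, Herc6, Usp18 and Trim25, which act on it, and Lgals3bp, which encodes a galectin-binding protein. They are 7 of the 24421 genes in the deposited count table, and all 7 passed the filter on low counts that left 17328 genes for testing. Because their levels at all 4 time points were in view when they were chosen, their own levels and differences are given as a description. Calls of the fit are counted for them beside the share of all genes called, no p-value of a single one of them is printed, and adjusted p-values are given for other genes.

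The libraries came from lumbar dorsal root ganglia (DRG), which hold the cell bodies of the sensory neurons that innervate the hind limb, of C57BL/6J mice, labelled wild type (WT) in all 8 libraries. The labels give an age of 8 weeks. The time points 1d, 3d and 30d were taken after a subcutaneous injection of 20 µl of 1% carrageenan, an irritant that produces a local inflammation, into the plantar surface of the left hind paw, and 0d stands for untreated naive mice, so no time point had a vehicle injection. Each time point has 2 libraries, each pooled from the L3 to L5 ganglia of 2 to 3 mice, so a replicate is a pool and differences between single mice cannot be seen. The labels call the samples DRG neurons, whereas the methods of the study dissect ganglia, and the markers given at the end show glia and blood cells beside neurons.

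ISG15 is processed at its carboxyl end and linked to lysines of target proteins by an enzyme chain that parallels that of ubiquitin. UBA7 is the activating enzyme (E1), UBE2L6 the conjugating enzyme (E2), and HERC6 the main ligase (E3) for ISG15 in mice, while USP18 cuts ISG15 off again and, independently of that protease activity, restrains signalling from the type I interferon receptor. TRIM25 is a ubiquitin ligase that also ligates ISG15 and takes part in RIG-I signalling. LGALS3BP is a secreted glycoprotein that binds galectin-3 and is not an enzyme of the chain. Genes of the system are known targets of type I interferon through the interferon-stimulated response element (ISRE), a DNA element bound by a complex that includes STAT2 and IRF9 and by other IRF proteins.

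The stretches of 120 bases that end just before the transcription start are printed for 4 of the genes, because the genes were high together at 1d and their promoters differed in the response element. They come from RefSeq (GRCm38.p6, the assembly also known as mm10) and read 5′ to 3′ on the strand of the gene. Starts are those of RefSeq, and that of Lgals3bp lies upstream of the gene end in the count table, so positions in its window do not refer to the locus given below. Capitals mark exact matches to the core GAAANNGAAA in Isg15 and matches with 1 mismatch in Uba7 and Lgals3bp, whereas Ube2l6 held neither.
Isg15, chr4:156200819-156200938, minus strand: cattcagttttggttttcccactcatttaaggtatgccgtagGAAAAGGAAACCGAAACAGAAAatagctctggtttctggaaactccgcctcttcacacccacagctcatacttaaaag
Uba7, chr9:107975447-107975566, plus strand: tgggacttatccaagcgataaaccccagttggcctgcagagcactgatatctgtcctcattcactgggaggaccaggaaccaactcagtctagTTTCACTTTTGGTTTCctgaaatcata
Ube2l6, chr2:84798708-84798827, plus strand: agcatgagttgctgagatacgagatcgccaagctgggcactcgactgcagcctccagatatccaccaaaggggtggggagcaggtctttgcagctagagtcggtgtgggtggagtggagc
Lgals3bp, chr11:118401960-118402079, minus strand: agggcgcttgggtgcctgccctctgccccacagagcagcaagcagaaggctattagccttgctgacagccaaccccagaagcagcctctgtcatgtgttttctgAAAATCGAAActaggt

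The search covered both strands of windows from 250 bases before to 50 bases after each start, and 6 of the 7 genes had an entry (Usp18 had none). Isg15 held 3 exact matches that overlap one another, at positions -78 to -69, -72 to -63 and -66 to -57, where the first transcribed base is 0. No exact match was in the windows of Uba7, Ube2l6, Herc6, Trim25 and Lgals3bp. Of all 32851 promoter windows, 1131 (3.44%) held an exact match, against 16 of 42 windows (38.1%) of the other interferon-stimulated genes described below and 1 of 29 (3.45%) of the ubiquitin-like system genes.

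With 1 mismatch allowed, a search added after the exact one, 5 of the 6 windows held a match, all but Ube2l6. The share was 35.4% of all windows and 78.6% of those of the other interferon-stimulated genes. In Uba7 the matches lay at -27 to -18, -21 to -12 and 3 to 12. Isg15 held a further one at -112 to -103, which is not in capitals above. The others lay at -197 to -188 in Herc6, -10 to -1 and -4 to 5 in Trim25, and -16 to -7 in Lgals3bp. The gamma-activated element TTCNNNGAA, known from responses to interferon gamma, was in 0 of the 6 windows and in 8.3% of all windows. A match here is a match of letters and no evidence of binding.

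In mm10, Isg15 lies on chromosome 4 (156199424 to 156200818, minus strand) with 2 exons, and Ube2l6 on chromosome 2 (84798828 to 84810003, plus strand) with 4 exons. Uba7 lies on chromosome 9 (107975567 to 107984056, plus strand, 24 exons). Herc6 (57580992 to 57665136, 23 exons) and Usp18 (121245906 to 121270917, 11 exons) are both on the plus strand of chromosome 6. Trim25 (88999403 to 89020293, plus strand, 9 exons) and Lgals3bp (118392752 to 118401931, minus strand, 6 exons) are both on chromosome 11. No exon of the 7 genes overlapped an exon of another gene in the table. Of all 50-base stretches of the longest transcript of each gene (GENCODE vM21), 11.3% of those of Ube2l6 and 3.96% of those of Isg15 also occurred in transcripts of other loci. Reads from such stretches may have been left out as multiply mapped, so the levels of Ube2l6 carry that uncertainty.

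The libraries held 44123208 to 73580338 counted read pairs, and levels are given as CPM, the counts of a gene relative to the size of its library, scaled by the TMM (trimmed mean of M-values) method, whose factors were 0.993 to 1.01. Log2 fold changes and their standard errors (SE) come from 1 edgeR quasi-likelihood fit of all 8 libraries, and a gene is called where the p-value adjusted over all 17328 genes is under 0.05. The common biological coefficient of variation was 8.85%. Errors of means are SD of n = 2 pools.

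Isg15, the modifier, was measured at 4.14 and 4.11 CPM in the 0d libraries, at 17.7 and 16.2 CPM at 1d, at 4.05 and 4.40 CPM at 3d, and at 4.35 and 4.40 CPM at 30d. The 1d libraries were both far above the other 6, which lay within a narrow band. The mean was 4.12 ± 0.0219 CPM (SD, n = 2) at 0d and 16.96 ± 1.03 CPM (SD, n = 2) at 1d, a 4.11-fold difference and the widest of the 7 genes. The log2 fold change was 2.04 (SE 0.14) at 1d, 0.04 (SE 0.14) at 3d and 0.08 (SE 0.14) at 30d, each against 0d. In whole ganglia, more cells that express a gene and more RNA per cell cannot be told apart.

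Usp18, the protease that removes ISG15, had 4.21 and 3.88 CPM at 0d, 11.2 and 10.6 CPM at 1d, 5.11 and 4.86 CPM at 3d, and 3.05 and 4.47 CPM at 30d. The 1d libraries again stood above all others, the 3d libraries were slightly above those at 0d, and the 30d libraries lay on either side of them. Against 0d the log2 fold change was 1.42 (SE 0.18) at 1d, 0.30 (SE 0.18) at 3d and -0.10 (SE 0.19) at 30d. The 30d pools differed from each other by 0.55 on the log2 scale, a gap wider than that of 84.1% of the genes tested.

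Uba7, the activating enzyme, had 9.05 and 7.66 CPM at 0d, 19.9 and 12.8 CPM at 1d, 8.52 and 9.03 CPM at 3d, and 11.5 and 11.95 CPM at 30d. Both 1d pools were above every other library, but they were far apart: replicate 2 was lower than replicate 1 by a log2 difference of -0.64, a gap wider than that of 90.5% of genes. The log2 fold change of 0.97 (SE 0.18) at 1d was 0.61 without 1d replicate 1 and 1.25 without 1d replicate 2, and it was called in only 1 of the 8 fits that each left out a library. The 30d libraries were also both above the 0d libraries, with a mean of 11.7 ± 0.306 CPM (SD, n = 2) against 8.36 ± 0.984 CPM (SD, n = 2) and a log2 fold change of 0.49 (SE 0.17), which was not called.

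Ube2l6, the conjugating enzyme, had 19.5 and 22.2 CPM at 0d, 28.0 and 25.8 CPM at 1d, 22.6 and 21.8 CPM at 3d, and 22.9 and 19.9 CPM at 30d. Its 1d libraries were above all others, while those at 0d, 3d and 30d overlapped. The log2 fold change at 1d, 0.37 (SE 0.10), was the smallest of the 7 genes and the only one of them not called. At 3d and 30d it was 0.09 (SE 0.10) and 0.03 (SE 0.10).

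Herc6, the main mouse ligase for ISG15, had 6.10 and 5.49 CPM at 0d, 12.1 and 10.5 CPM at 1d, 6.56 and 6.66 CPM at 3d, and 7.24 and 5.31 CPM at 30d. The 1d libraries were above all others, those at 3d were above those at 0d by a small margin, and the 30d pools straddled the 0d pools. Its log2 fold change against 0d was 0.96 (SE 0.17) at 1d, 0.19 (SE 0.17) at 3d and 0.11 (SE 0.17) at 30d. The call at 1d was lost without either 0d library or without 1d replicate 1, where the log2 fold change stayed between 0.85 and 1.07.

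Trim25, the ligase for ubiquitin and ISG15, had 36.0 and 41.0 CPM at 0d, 55.2 and 58.2 CPM at 1d, 46.7 and 46.1 CPM at 3d, and 38.4 and 30.2 CPM at 30d. Its libraries stepped down from 1d to 3d, both still above 0d, and one 30d pool was below the 0d pools. Against 0d its log2 fold change was 0.56 (SE 0.10) at 1d, 0.27 (SE 0.10) at 3d and -0.17 (SE 0.10) at 30d. At 1d it was called in 3 of the 8 fits that each left out a library.

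Lgals3bp, the galectin-3-binding glycoprotein, had 66.4 and 68.3 CPM at 0d, 103 and 102 CPM at 1d, 88.6 and 78.6 CPM at 3d, and 68.8 and 68.4 CPM at 30d. The pools of each time point lay close together except at 3d, where replicate 2 was lower by a log2 difference of -0.17. The order of the time points, 1d above 3d above 30d and 0d, held for every library. Relative to 0d its log2 fold change was 0.61 (SE 0.06) at 1d, 0.31 (SE 0.06) at 3d and 0.03 (SE 0.06) at 30d. The 3d difference was the only one of the 7 genes that was called at that time, and that call was lost in 6 of the 8 fits without a library, both those without a 3d pool included.

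**Figure D1:**
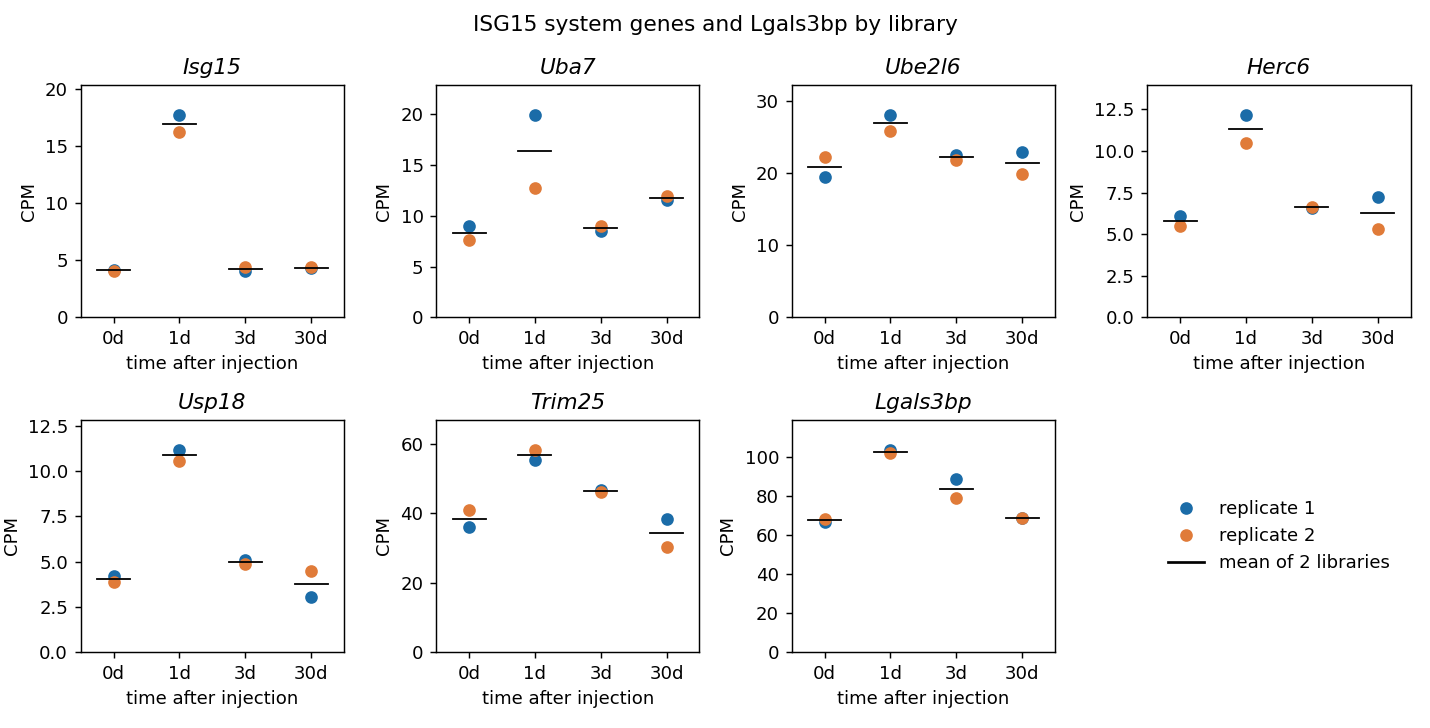
Level of each of the 7 genes in CPM (vertical axes, each starting at 0) in the 2 libraries of each time point (horizontal axes), with a bar at the mean of 2 libraries. In all 7 panels both 1d libraries sit above the 6 others, and Herc6, Usp18, Trim25 and Lgals3bp still lie above the 0d libraries at 3d, where Isg15 is at 4.05 and 4.40 CPM, close to its 0d level.

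At 1d against 0d, 6 of the 7 genes were called higher, beside 0.329% of all genes tested, and both 1d libraries were above both 0d libraries for 7 of 7, beside 15.5% of all genes. At 3d against 0d, 1 of 7 was called higher (0.19% of all genes) and 4 of 7 had no overlap above 0d, namely Herc6, Usp18, Trim25 and Lgals3bp (19.9% of all genes). At 30d against 0d none of the 7 was called by edgeR (0.0231% of all genes in either direction), 1 had an unadjusted p under 0.05, and DESeq2 called 0. Isg15, Uba7 and Lgals3bp had no overlap above 0d at 30d, 3 of 7 beside 19.4% of all genes. Since the choice of the genes used these contrasts, nothing is read from these counts. The number of all genes called at 30d in either direction was itself unsteady, 4 in the fit of all libraries and 202 without 30d replicate 2 or 90 without 0d replicate 1, and at 3d it was 38 and 1 without 3d replicate 1. Without 0d replicate 1 or without 1d replicate 1 the count called at 1d was 3, and at 3d it was 0 without any 1 of the 6 libraries of 0d, 1d and 3d.

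From 1d to 3d all 7 genes were lower without overlap (17.6% of all genes), and 2 were called lower, Isg15 at a log2 fold change of -2.004 (SE 0.14) and Usp18 at -1.12 (SE 0.18), beside 0.265% of all genes. The count was 5 with DESeq2, without a filter, with the replicate block or with the compared groups alone, and Usp18 lost its call in 4 of the 8 fits that each left out a library. The 5 others ranged from -0.90 for Uba7 to -0.28 for Ube2l6. From 3d to 30d the directions were mixed. Lgals3bp was the 1 called lower, at -0.29 (SE 0.06), beside 0.727% of all genes, and this call was lost without robust estimation, with the compared groups alone and in 3 of the 8 fits that left out a library (either 3d pool or 30d replicate 2). Trim25, which DESeq2 and the fit without a filter also called, had -0.44 (SE 0.10), Uba7 had 0.42 (SE 0.17) and Isg15 had 0.05. From 1d to 30d 5 of 7 were called lower, all but Uba7 and Ube2l6, beside 0.514% of all genes. Herc6 lost this call in 5 of the 8 fits, and without 1d replicate 2 the count was 3, with Herc6 and Trim25 lost. Median log2 fold changes of the 7 genes against 0d were 0.96 at 1d, 0.19 at 3d and 0.03 at 30d. Those of all genes tested were -0.0032, -0.0021 and -0.0004. The median absolute log2 fold change of all genes, which ignores direction and is not comparable with these, was 0.08, 0.08 and 0.11. Since the 7 genes were chosen with these values known, nothing is read from their medians.

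**Figure D2:**
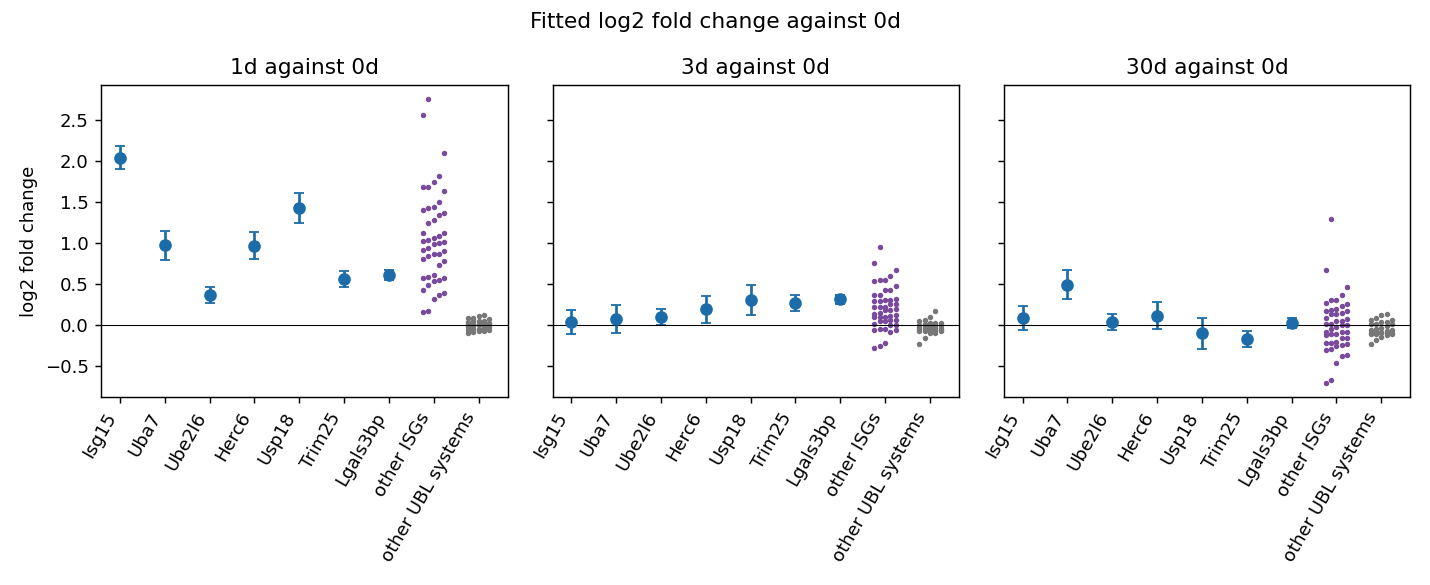
Fitted log2 fold change (vertical axis) at 1d, 3d and 30d against 0d for the 7 genes (blue, bars are 1 SE), for 47 other interferon-stimulated genes (ISGs, purple) and for 29 genes of ubiquitin and other ubiquitin-like (UBL) systems (grey). At 1d Isg15 is at 2.04 and Ube2l6 at 0.37, and the grey points lie close to 0.

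Levels were compared between genes only per kilobase of exon (RPKM, here CPM divided by the exon length in the table). At 0d Lgals3bp had the highest level at 31.1 ± 0.633 RPKM (SD, n = 2), above 84.8% of the genes tested. Ube2l6 followed at 15.0 ± 1.37 RPKM (SD, n = 2), Trim25 at 6.92 ± 0.628 RPKM (SD, n = 2) and Isg15 at 5.45 ± 0.0290 RPKM (SD, n = 2). Uba7 at 2.64, Usp18 at 2.29 and Herc6 at 1.10 RPKM were the lowest, Herc6 above 22.8% of genes, and no neighbours in this order overlapped. In naive ganglia the transcript of the conjugating enzyme was thus measured at a higher level than that of the modifier, and the transcripts of the activating enzyme and the main ligase at lower ones.

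At 1d Isg15 stood at 22.4 ± 1.36 RPKM (SD, n = 2), second to Lgals3bp at 47.3 ± 0.524 RPKM (SD, n = 2) and above Ube2l6 at 19.4 ± 1.12 RPKM (SD, n = 2) without overlap. Since multiply mapped reads of Ube2l6 may have been left out, the order of Isg15 and Ube2l6 at 1d is uncertain. Trim25 was at 10.2, Usp18 at 6.13 and Uba7 at 5.17 RPKM, where the libraries of Usp18 and Uba7 overlapped, and Herc6 was still the lowest at 2.14 RPKM. At 3d Isg15 was again the fourth of the 7 at 5.59 RPKM, with Ube2l6 at 16.0 RPKM, and Usp18 and Uba7 overlapped. At 30d the order was that of 0d, except that the libraries of Trim25, at 6.16 RPKM, and Isg15, at 5.78 RPKM, overlapped.

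The ratio of Isg15 to each other gene shows how unevenly the group moved. Isg15 was measured at 0.365 ± 0.0352 (SD, n = 2) of the RPKM of Ube2l6 at 0d and at 1.16 ± 0.00359 (SD, n = 2) at 1d. Its ratio to Trim25 was 0.792 ± 0.0761 (SD, n = 2) at 0d and 2.20 ± 0.216 (SD, n = 2) at 1d, and its ratio to Lgals3bp 0.176 ± 0.00451 (SD, n = 2) and 0.474 ± 0.0236 (SD, n = 2). The ratio to Usp18 differed least, at 2.39 ± 0.127 (SD, n = 2) at 0d and 3.66 ± 0.0800 (SD, n = 2) at 1d, still without overlap. The ratio to Uba7 was 2.08 ± 0.234 (SD, n = 2) at 0d, 4.51 ± 1.13 (SD, n = 2) at 1d and 1.56 ± 0.0272 (SD, n = 2) at 30d, where both libraries lay below those of 0d.

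**Figure D3:**
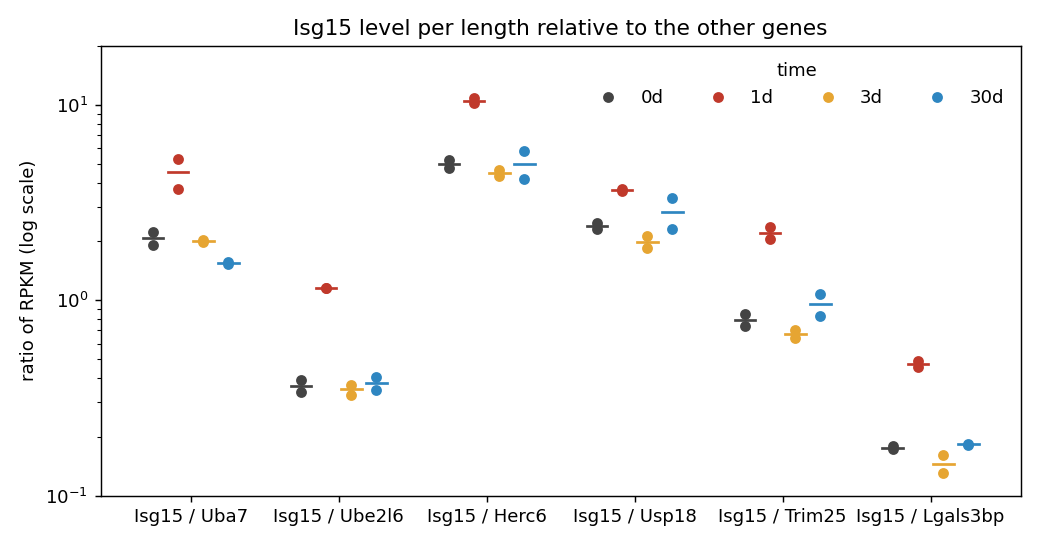
Ratio of the Isg15 level to the level of each of the 6 other genes, both in RPKM (vertical axis, log scale), per library (points) and mean of the 2 libraries (bars) at each time point. Every ratio is highest at 1d, from 0.474 for Lgals3bp to 10.5 for Herc6.

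The genes also differed in how much of the 1d difference was still measured at 3d, expressed as the 3d minus 0d difference in mean CPM as a percentage of the 1d minus 0d difference, with the range when single libraries of these time points were left out. For Isg15 it was 0.799% (range -0.592 to 2.19), for Uba7 5.24% (range -3.79 to 12.8), for Usp18 13.7% (range 11.5 to 15.8) and for Herc6 14.8% (range 9.75 to 19.2). Ube2l6, whose 1d difference was the smallest as a log2 fold change, had 22.6% with a range of 0.621 to 36.6. Trim25 had 43.4% (range 34.5 to 50.1) and Lgals3bp 46.1% (range 32.0 to 60.2), and their ranges lay above those of Isg15, Uba7, Usp18 and Herc6. At 30d Uba7 had 42.3% of its 1d difference (range 29.2 to 76.2), and the 6 others had -23.1% to 8.77%.

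Among the 26 other interferon-stimulated genes called at 1d, the share left at 3d had a median of 12.4%, from -8.20% for Parp14 to 56.6% for Oasl2, an oligoadenylate synthetase-like gene. Examples within this range were 0.292% for Ifih1, the MDA5 sensor, 10.1% for Rsad2, 10.4% for Mx1, 16.6% for Ifit3, 31.3% for Ifit1 and 36.0% for Ddx58, the RIG-I sensor. Eif2ak2, the kinase PKR that double-stranded RNA activates and a known target of ISG15, had 46.1% (range 42.0 to 50.2), and Stat2, a subunit of the factor that binds the response element, 29.9%.

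**Figure D4:**
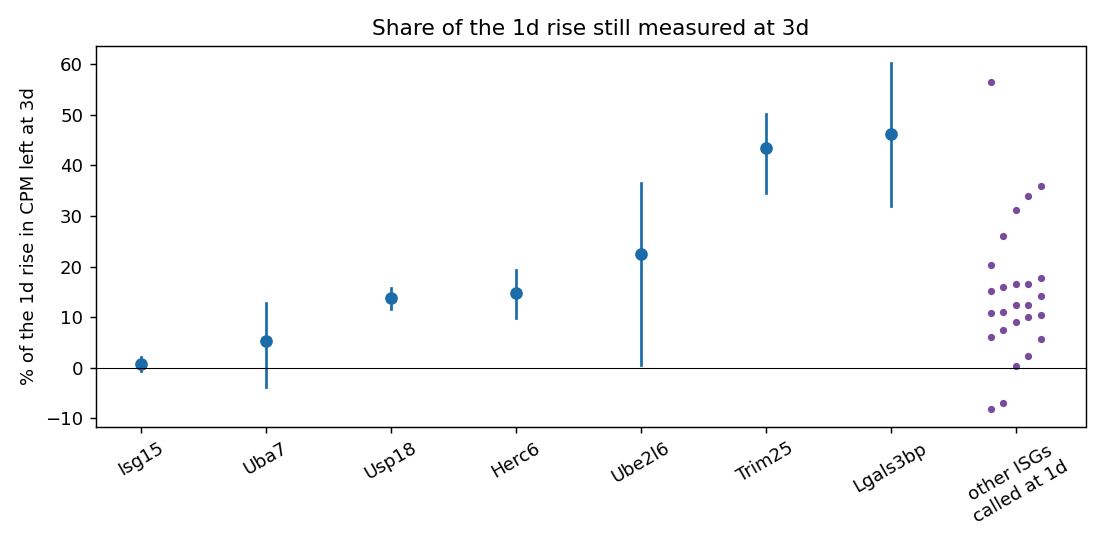
Percentage of the 1d minus 0d difference in CPM still measured at 3d (vertical axis) for the 7 genes (blue, bars are the range when single libraries were left out) and for 26 other interferon-stimulated genes called at 1d (purple). Isg15 is at 0.799% and Lgals3bp at 46.1%, with the median of the purple points at 12.4%.

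For each of the 7 genes the 3 most alike profiles among the genes tested were found by the root mean square (RMS) difference of log2 CPM over the 8 libraries, each gene centred on its own mean. This likeness describes 8 libraries of the same tissue that share depth and preparation, and it carries no test. Nearest to Isg15 were Ifit3b (0.199), an antiviral tetratricopeptide gene, Rtp4 (0.236), a receptor chaperone, and Zbp1 (0.251), a sensor of Z-form nucleic acids. Ifit3b had 4.99 and 5.45 CPM at 0d, 19.1 and 17.6 CPM at 1d, 6.50 and 6.32 CPM at 3d, and 6.11 and 4.87 CPM at 30d. Since it was picked for this likeness, its level at 1d carries no test here. Usp18 was nearest to Ddx60 (0.196), Rtp4 (0.197) and Gbp3 (0.236).

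Lgals3bp had the closest neighbour of all 7 genes in Eif2ak2, at an RMS of 0.0336, followed by Gm6548 (0.0585) and Ifi35 (0.0862). Eif2ak2 had 30.4 and 31.8 CPM at 0d, 46.7 and 46.2 CPM at 1d, 38.8 and 37.5 CPM at 3d, and 31.1 and 31.4 CPM at 30d. As with Lgals3bp, its 3d libraries lay between those of 1d and those of 0d, which follows from the way it was picked and carries no test. Among the 3 nearest to Herc6 were H2-T23 (0.0920), a nonclassical MHC class I gene, and Gbp7 (0.0980), a guanylate-binding protein gene.

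The neighbours of the other 3 genes were mixed. Ube2l6 was nearest to Gas8 (0.0600), Erap1 (0.0653) and Psme2 (0.0721). The last 2, genes of peptide trimming and of the proteasome activator, act in antigen presentation. Their log2 fold changes at 1d were 0.27, 0.38 and 0.36, close to that of Ube2l6 by the way they were picked. Uba7 was nearest to AW011738 (0.126), Parp12 (0.156) and Gbp9 (0.166), and Trim25 to Ptchd1 (0.0825), Cbr3 (0.0891) and Ccdc30 (0.1002). Within the 7 genes Trim25 and Lgals3bp were the closest pair (0.128) and Isg15 and Ube2l6 the farthest (0.726). The member closest to Isg15 was Usp18 (0.352), its protease.

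**Figure D5:**
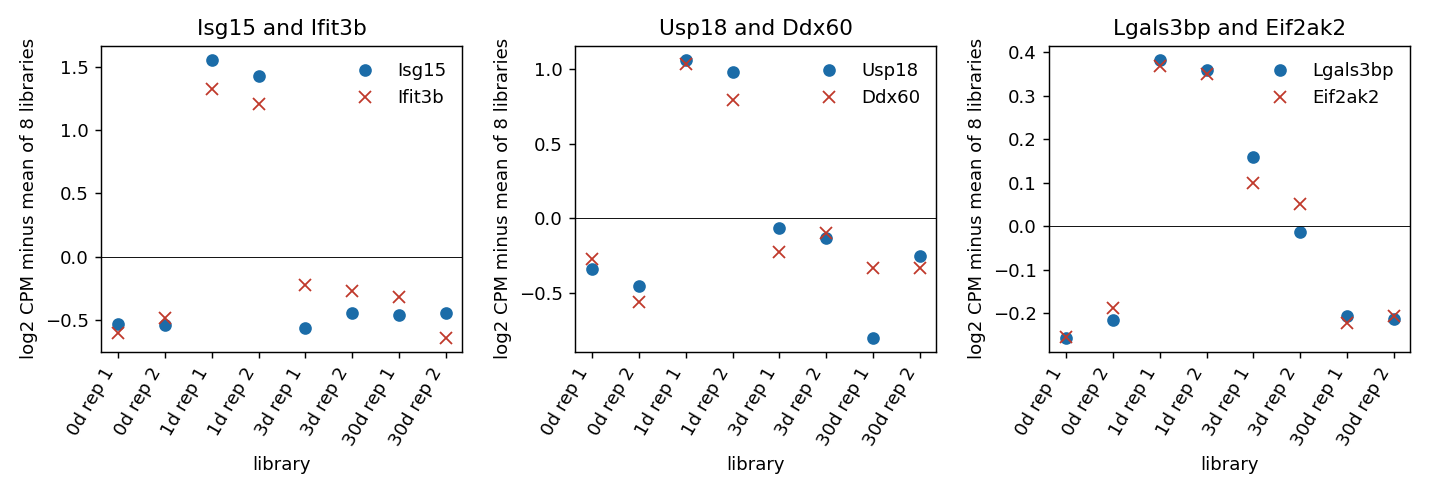
Log2 CPM minus each gene's mean over the 8 libraries (vertical axes) in each library (horizontal axes) for Isg15 with Ifit3b, Usp18 with Ddx60 and Lgals3bp with Eif2ak2. The RMS difference between the profiles is 0.199, 0.196 and 0.0336.

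Other genes of the wider pathway came from lists of known members, chosen with earlier results of these data known. Their counts and p-values are therefore given as a description. Of 47 other interferon-stimulated genes tested, 26 rose and 0 fell at 1d, the median of the list being 0.99 on the log2 scale with 47 of 47 values above 0. Examples are Mx1, an antiviral GTPase, at 2.56 (adjusted p = 0.00406), Ifit1 at 1.68 (adjusted p = 3.39e-06), and Irf7, an interferon regulatory factor, at 1.64 (adjusted p = 9.21e-05). Isg15 at 2.04 lay inside the range of this list, 0.15 to 2.75. At 3d 2 of 47 were called, Ifit1 at 0.76 (adjusted p = 0.00794) and Oasl2 at 0.66 (adjusted p = 0.00218). At 30d 0 of 47 were called. Without 1d replicate 1 the count called at 1d was 13, and without 3d replicate 1 the count at 3d was 0.

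Ubiquitin and the enzymes of other ubiquitin-like modifiers (SUMO, NEDD8, UFM1 and the like) gave another picture. Ubd, a ubiquitin-like modifier gene of the list, had 0 to 8 counts per library and could not be tested. Of 29 genes tested, the edgeR fit of all 8 libraries called 0 in any of the 6 comparisons. Against 0d it gave an unadjusted p under 0.05 for 0 genes at 1d, 0 at 3d and 5 at 30d. DESeq2 called 0 except for 1 gene at 30d against 1d. Log2 fold changes at 1d ran from -0.09 to 0.12. Uba1, the activating enzyme of ubiquitin, had 0.05 (SE 0.04), and Ube2l3, the ubiquitin-conjugating relative of Ube2l6, -0.09 (SE 0.05). Ubb, at 547 RPKM, was the most abundant at 0d.

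Of 14 tested genes tied to ISG15 as proteases, targets or partners, 2 rose at 1d: Stat2 at 0.69 (SE 0.06, edgeR adjusted p = 4.30e-05), which anchors USP18 to the interferon receptor, and Eif2ak2 at 0.58 (SE 0.07, adjusted p = 0.000369). Stat2 had 77.5 and 72.9 CPM at 0d and 127 and 116 CPM at 1d. Usp16, another protease able to act on ISG15, had a log2 fold change of 0.07 (adjusted p = 1.00). At 3d 0 of the 14 were called by edgeR, with 2 at an unadjusted p under 0.05 and 1 called by DESeq2, and at 30d 0 were called and 0 had such a p.

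Of 15 tested relatives of Herc6 and Trim25, 0 were called at 1d by edgeR, with 6 at an unadjusted p under 0.05 and 1 called by DESeq2. Their median log2 fold change was 0.11. At 3d 0 were called, with 1 at such a p and 0 by DESeq2, and at 30d 0 were called, with 2 at such a p and 2 by DESeq2. Trim34a, an interferon-inducible TRIM gene, had 3.14 and 2.77 CPM at 0d and 6.95 and 5.79 CPM at 1d, at 1.11 (SE 0.24, adjusted p = 0.0723), and it fell by 1.31 on the log2 scale from 1d to 30d (SE 0.24, adjusted p = 0.0184).

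The galectins, the sugar-binding proteins after which Lgals3bp is named, were examined beside it. Of 11 tested, 0 were called at 1d or at 3d by edgeR, with 1 at an unadjusted p under 0.05 and 1 called by DESeq2 in each comparison. At 30d 0 were called, with 5 at an unadjusted p under 0.05 and 0 by DESeq2. Lgals3, the partner that gives Lgals3bp its name, had 11.2 and 12.1 CPM at 0d and 11.9 and 12.95 CPM at 1d, a log2 fold change of 0.10 (SE 0.11, adjusted p = 1.00). Lgals9 had 0.30 at 1d (SE 0.08, adjusted p = 0.255) and was lower at 30d than at 3d by a log2 fold change of -0.48 (SE 0.07, adjusted p = 0.00964). Lgals1 at 140 RPKM was the most abundant galectin at 0d.

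None of 13 interferon genes of types I, II and III that were looked up had counts high enough to be tested. Of these, 12 had 0 counts in all 8 libraries and Ifng had 3 counts in 3d replicate 2 alone. A count of 0 allows up to 3 counts, which is 0.0410 to 0.0684 CPM depending on the library. These limits cover counting error only.

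Markers of other cells of the ganglion were summed in each library. The 7 macrophage markers summed to 80.4 to 94.7 CPM at 0d and 89.5 to 90.2 CPM at 1d, with 0 of 7 called at 1d, and Cx3cr1 among them was lower at 3d than at 0d by a log2 fold change of -1.02 (adjusted p = 0.00794). The T and NK cell markers summed to 2.53 to 2.66 CPM and 1.98 to 2.85 CPM, and the B cell markers to 2.89 to 5.00 CPM and 4.15 to 4.38 CPM. The neutrophil markers summed to 47.0 to 99.8 CPM at 0d, 107 to 117 CPM at 1d, 147 to 149 CPM at 3d and 99.6 to 238 CPM at 30d, with 7 of 7 above 0 in log2 fold change at each time and 0 called. Unlike the 7 genes they were not highest at 1d, and their part in the 1d levels was not tested.

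The plasmacytoid dendritic cell markers summed to 49.1 to 57.8 CPM at 0d and 54.5 to 64.9 CPM at 1d, where Bst2, itself an interferon-stimulated gene, was the 1 called, and Siglech, their defining marker, had 0.662 and 0.929 CPM at 0d and 0.669 and 0.912 CPM at 1d. Erythroid markers summed to 141 to 282 CPM at 0d and 259 to 270 CPM at 1d, sums in which Hba-a1 and Hba-a2 had identical counts in every library and were added as separate genes. Skeletal muscle markers summed to 68.1 to 127 CPM at 0d and 27.1 to 58.6 CPM at 1d, and Myh1 among them fell by 1.47 on the log2 scale (SE 0.27, adjusted p = 0.0324). Schwann cell markers summed to 7860 to 10745 CPM at 0d and 7638 to 7695 CPM at 1d, whereas sensory neuron markers summed to 10920 to 11375 CPM at 1d beside 11035 to 11036 CPM at 0d. Satellite glia markers summed to 3340 to 3388 CPM at 0d and 3121 to 3246 CPM at 1d. Fabp7 among them had 148 and 176 CPM at 0d and 90.9 and 83.2 CPM at 1d, a log2 fold change of -0.89 (SE 0.40, adjusted p = 1.00) that was not called. Endothelial markers summed to 92.1 to 92.3 CPM and 84.6 to 90.1 CPM. Fibroblast markers summed to 949 to 1365 CPM and 922 to 964 CPM, and Lum among them fell by 0.49 on the log2 scale at 1d (SE 0.09, adjusted p = 0.0326). No marker was at 0 in every library. The part of blood, muscle and glial RNA in the differences was not tested.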

How the data were processed

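RNA-seq was measured in 8 libraries, 2 pools of ganglia for each of 0d, 1d, 3d and 30d. The authors used cutadapt 2.10 for trimming, STAR 2.7.5a for alignment to mm10 and featureCounts 2.0.1, without strand, for counting pairs over exons. The counts are used as deposited. A pair that overlapped several genes was counted for each of them, and multiply mapped reads were not counted. Groups were taken from the labels, and 0 columns of other per-sample values were left unused. Genes with low counts were removed (filterByExpr: 7093 of 24421 genes, at most 0.0120% of a library's counts). edgeR 4.0.16 in R 4.3.3 (TMM, glmQLFit with robust estimation, glmQLFTest) fitted all 8 libraries with 1 mean per time point, with Benjamini-Hochberg adjustment over 17328 genes and a threshold of 0.05. SE was obtained from each log2 fold change and its F statistic. Log2 CPM used a prior count of 2. Depth was 44123208 to 73580338 counts per library, and genes with few counts carry a larger counting error (Isg15 had 219 and 252 counts and Mx1 30 and 34 at 0d). The p-values measure the spread between pools. The scripts were tested on simulated data.

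The members and the lists of related genes and cell markers were chosen with earlier results of these data known. Named genes are all 7 members, genes of the lists that were called in any comparison, the 3 genes of each list with the highest level per length at 0d, and the 3 tested genes most like each member. Genes outside this rule that are named for their part in the pathway (Uba1, Ube2l3, Ubd, Usp16, Lgals3, Siglech, Ifng) or as cell markers (Fabp7, Hba-a1, Hba-a2, Tcf4) were chosen after their values were seen. Alternatives were DESeq2 1.42.0, its size factors in edgeR, no filter, a replicate block, no robust estimation, the compared groups alone, and each library left out. Promoter sequences were taken from the RefSeq table and matched by symbol. Protein sequences were not used here. Values of some genes that this rule names are not reported here.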

Additional observations from a re-analysis of the deposited data

How the results depend on the processing

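Under the 6 other settings and the 8 fits without a library, no log2 fold change of the 7 genes changed sign where it had been called. The counts called for the 7 genes against 0d were 6 at 1d, 1 at 3d and 0 at 30d, and from 1d to 3d, 3d to 30d and 1d to 30d they were 2, 1 and 5. At 1d against 0d the count was 4 without robust estimation (Uba7 and Trim25 lost), 5 with the replicate block (Trim25 lost) and 5 with the compared groups alone (Uba7 lost), and from 1d to 30d it was 4 without robust estimation or with the compared groups alone (Herc6 lost). Without robust estimation the counts were 0 at 3d and 0 at 30d against 3d, with the compared groups alone 5 at 3d against 1d and 0 at 30d against 3d, and with DESeq2 or without a filter 5 and 2 in these comparisons. Leaving out single libraries gave 3 to 5 at 1d, 0 to 1 at 3d, 1 to 4 at 3d against 1d, 0 to 2 at 30d against 3d and 3 to 6 at 30d against 1d.

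Deviations of same-numbered libraries correlated between -0.0144 and 0.0438 over genes, so replicate numbers showed no pairing over the genes as a whole. Such a correlation cannot exclude a shared effect on some genes. With the replicate block the count at 3d against 1d was 5, and over all genes 73, 50, 69, 77, 225 and 159 were called in the 6 comparisons in the order above, against 60, 38, 4, 50, 162 and 99 without it. DESeq2 called 110, 111, 186, 108, 377 and 233, a fit without a filter 95, 89, 177, 99, 358 and 213, one without robust estimation 50, 20, 0, 43, 92 and 74, and the compared groups alone 64, 121, 0, 260, 273 and 74. Leaving out single libraries gave 26 to 111, 1 to 121, 1 to 202, 5 to 117, 12 to 525 and 51 to 359. With the compared groups alone 138 were higher and 122 lower at 3d against 1d, compared with 4 and 46, and 112 and 161 at 30d against 3d, compared with 36 and 126.

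Of the other interferon-stimulated genes 26, 2, 0, 25, 5 and 31 were called. Without a filter 4 were called at 3d and 1 at 30d. From 3d to 30d 3 were called without robust estimation or with the compared groups alone. Leaving out single libraries gave 13 to 34 at 1d, 0 to 3 at 3d, 0 to 1 at 30d, 3 to 30 at 3d against 1d, 2 to 9 at 30d against 3d and 22 to 37 at 30d against 1d. Of the ubiquitin-like system genes 1 was called at 3d against 1d with the compared groups alone and 1 at 30d against 1d without a filter or with DESeq2, and leaving out single libraries gave 0 to 1 in these and at 30d. Where no value above shows the cause of a change, the cause was not tested. With 2 pools per time point the spread rests on few values, and the libraries of a time point may share handling that cannot be told apart from time.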
